A study of Mus musculus with 72 samples.

Results

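The response of the mouse liver to a diet without methionine and choline was examined at circadian time 12 (CT12), the onset of the active phase of nocturnal mice kept in darkness. The 6 libraries, 3 per diet, were taken by their tissue, diet and time labels from the 72 libraries of the study, of which 36 were from liver. All were poly-A RNA-seq libraries from the left liver lobe of C57BL/6J mice, which the protocol gives as 8 to 12 weeks old when bought. The protocol names males only, while the sample labels name both sexes. MCD mice had free access to the methionine- and choline-deficient diet, and control mice to its isocaloric counterpart, for 11 days. All mice lived in a light-dark cycle for 10 days and in constant darkness on day 11, when they were killed. At CT12, as at every other time, replicates 1 and 2 were males and replicate 3 was a female. The 30 liver libraries of CT00, CT04, CT08, CT16 and CT20, with the same groups and numbers, were used to ask what set CT12 apart.

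Methionine is the source of S-adenosylmethionine, the methyl donor of the cell, and choline is needed for phosphatidylcholine, with which the liver exports fat in lipoproteins. Mice on an MCD diet are known to store fat in hepatocytes and to develop inflammation of the liver. A shortage of amino acids is known to activate the transcription factor ATF4 and, through it, genes of amino acid synthesis and transport.

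Library totals were 68.16 to 70.95 M counts on control and 58.73 to 75.44 M on MCD, and levels are given as CPM, counts scaled to a common library size, after TMM scaling. Xist lay at 0.331 to 2.18 CPM in the 4 libraries labelled male and at 1067 and 1275 CPM in both females, so sex labels held at CT12. Library MCD 2 stood apart. Its TMM factor was 1.267, against 1.08 and 1.091 in the other MCD libraries and 0.861 to 0.928 in controls, and mitochondrially encoded genes took 3.71% of its counts, against 5.41% to 7.21% in the other 5 libraries. Control CT08 a, 1 of 2 liver columns with the same name, stood apart among the other times: its Fgf21 level of 16.7 CPM was far above the 0.406 and 1.15 CPM of the other CT08 controls. Its TMM factor was 1.178, against 0.89 and 0.922 in those controls and 0.986 to 1.15 in the CT08 MCD libraries. Major urinary protein genes took 1.01% of its counts. Their share was 8.74% in the other CT08 control male and 1.91% and 1.01% in the CT08 MCD males. Control CT08 a was kept in the main fit under its diet label, and whether that label is right was not tested. List counts that moved without MCD 2, and counts across times that moved without control CT08 a, are given both ways.

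The first comparison asked which genes differed between the diets at CT12. By edgeR's quasi-likelihood test, at a Benjamini-Hochberg adjusted p under 0.05, 3081 of 20249 genes tested (15.2%) differed between the diets and are called below, of which 1637 (8.08%) were higher on MCD and 1444 (7.13%) were lower. Below, a p in parentheses after a log2 change is this adjusted p unless it is named otherwise, and ± is the standard error. Changes of at least 1 log2 were seen in 877 of the higher and 308 of the lower genes. The CPM values of the 3 control and 3 MCD libraries did not overlap for 6026 genes (29.8% of those tested), and 2805 genes were both called and free of overlap. Without MCD 2 the count fell to 1272, with 637 higher and 635 lower, and it was 1365 without control 1 and 1874 without control 2. Fitted on the 6 CT12 libraries alone, with no spread shared with the other times, 754 genes were called, and 65 of 116 called genes that were followed singly through the alternatives lost their call. Changes are relative to the median gene, which TMM placed at 0.03 log2. With library totals alone that gene lay at 0.39 log2, and the 6475 called genes divided into 5987 higher and 488 lower (92.5% higher, against 53.1% with TMM).

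Among called genes with a mean of at least 1 CPM on the higher diet and no overlap between groups, genes all but silent on the control diet led the increases. Aunip, which encodes a partner of Aurora kinase A at the spindle pole, and Dlgap5, a microtubule-binding protein of the mitotic spindle, had no count in the 3 control libraries. On MCD, Aunip was measured at 0.466, 2.39 and 1.72 CPM, at least 93.7-fold above a floor of 3 counts over the control group (edgeR adjusted p = 0.00881). Dlgap5 was at 0.859, 2.01 and 1.31 CPM, at least 86.9-fold above the same floor (edgeR adjusted p = 0.00434). Aunip missed the threshold with males only (adjusted p = 0.061) and Dlgap5 with limma (0.0591). Exo1, an exonuclease of DNA repair, was at 0, 0.0802 and 0 CPM in controls and 0.859, 1.78 and 1.31 CPM on MCD, with 5.49 ± 1.36 log2 between them (SE, edgeR adjusted p = 0.00841, 0.0507 without control 1; the fitted change was 9.58 without control 2 and 4.80 without control 3).

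Fgf21, the fasting hormone that the liver secretes into blood, was at 1.14, 0.401 and 1.19 CPM in controls and 112, 18.3 and 16.8 CPM on MCD. Every MCD value lay over every control value, with MCD 1 far above the other MCD libraries, and the log2 change was 5.68 ± 1.06 (SE, edgeR adjusted p = 0.00126; 4.28 without MCD 1, and adjusted p 0.0504 with the CT12 libraries alone). Ly6d, a membrane protein of the Ly6 family, went from 0.281, 0.289 and 0.838 CPM to 25.8, 59.8 and 24.2 CPM, a change of 6.64 ± 1.35 log2 (edgeR adjusted p = 0.00231; 5.82 without MCD 2). Sprr1a, a precursor of the cornified envelope of epithelia, was at 0, 0 and 0.0633 CPM in controls and 6.97, 4.68 and 1.90 CPM on MCD (edgeR adjusted p = 0.00419, 0.148 with limma). The control values of Sprr1a amount to 4 counts in all, so its fitted change of 7.52 log2, which was 11.30 without control 3, has little precision. Ypel4 had 2 counts over the control group and 2.83, 2.54 and 1.29 CPM on MCD (edgeR adjusted p = 0.000643), and Bex2 was at 0, 0 and 0.0791 CPM and 2.90, 0.662 and 0.952 CPM, with 5 control counts and a fitted change of 5.74 log2 (0.00194) that was 9.65 without control 3 and 4.81 without MCD 1. Cfap44, a protein of the ciliary axoneme, had the lowest of these increases, 5.37 ± 1.57 log2 (edgeR adjusted p = 0.0237). It lost its call without control 1 (0.102), control 2 (0.0879) or MCD 2 (0.149), and its change was 3.79 without MCD 2 and 9.66 without control 3.

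Among called genes whose groups did not overlap, the largest decreases were those of genes of the patatin-like lipases, a receptor subunit and the major urinary proteins. Pnpla5, a lipase of the patatin family, was at 1.73, 0.850 and 4.14 CPM on control and had no count on MCD, at least 171-fold lower by the floor of 3 counts (edgeR adjusted p = 0.00141, 0.114 with limma). Pnpla3, a lipase of lipid droplets whose gene is a target of SREBP-1c, was at 10.3, 5.66 and 52.4 CPM in controls and 0.442, 0.491 and 1.54 CPM on MCD. No MCD value reached the lowest control value, and Pnpla3 fell by 4.49 ± 0.84 log2 (edgeR adjusted p = 0.00127). Chrna4, a nicotinic acetylcholine receptor subunit, went from 11.8, 6.13 and 15.5 CPM to 0.233, 0.405 and 0.546 CPM, also without overlap (-4.81 ± 0.90 log2, edgeR adjusted p = 0.00134). The non-coding gene B430219N15Rik fell by 4.80 ± 1.04 log2 (edgeR adjusted p = 0.00332), but its exons overlap a gene on the opposite strand, and the strand setting of the counting is not given in the sources used here. The same holds for Cdkn1a, Jun, Ccnd1, Cd9, Arntl, Gclm, Serpina1c and Cyp2a4, named below.

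Major urinary proteins are pheromone carriers made in quantity by the male liver, and their genes are near-identical copies between which reads can be split, so single-gene values are uncertain. Mup17 was at 2417, 4132 and 418 CPM in controls and 218, 5.30 and 20.7 CPM on MCD (-4.68 ± 1.15 log2, edgeR adjusted p = 0.00807), and Mup18 at 5644, 3275 and 851 CPM and 374, 12.7 and 40.0 CPM (-4.49, 0.00719). Without MCD 1 both were lower still, at -5.51 and -5.33 log2. In both, the control female was lowest among controls and male MCD 1 highest among MCD. Mup19 and Mup16 fell by 4.08 and 4.48 log2 (edgeR adjusted p = 0.0143 and 0.0326), Mup16 by 5.54 without MCD 1. The call for Mup16 was lost without control 1, 2 or 3 or MCD 3 (0.0732, 0.0554, 0.0525 and 0.0732), and males alone gave no call for any of these 4 genes (0.0753, 0.0784, 0.0751 and 0.179, in the order named). Their changes in males alone were -4.889, -4.545, -4.499 and -4.59 log2, in the same order. The pseudogenes Mup-ps18 and Mup-ps20 had 431, 735 and 87.9 and 229, 109 and 23.2 CPM on control, respectively, and on MCD 15 counts and no count (edgeR adjusted p = 0.00429 and 0.0389). The call for Mup-ps20 was lost without any of 5 of the 6 libraries, control 2 being the exception (edgeR adjusted p 0.0544 to 0.161), and limma called neither pseudogene (0.212 for Mup-ps18, 0.372 for Mup-ps20).

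**Figure D1:**
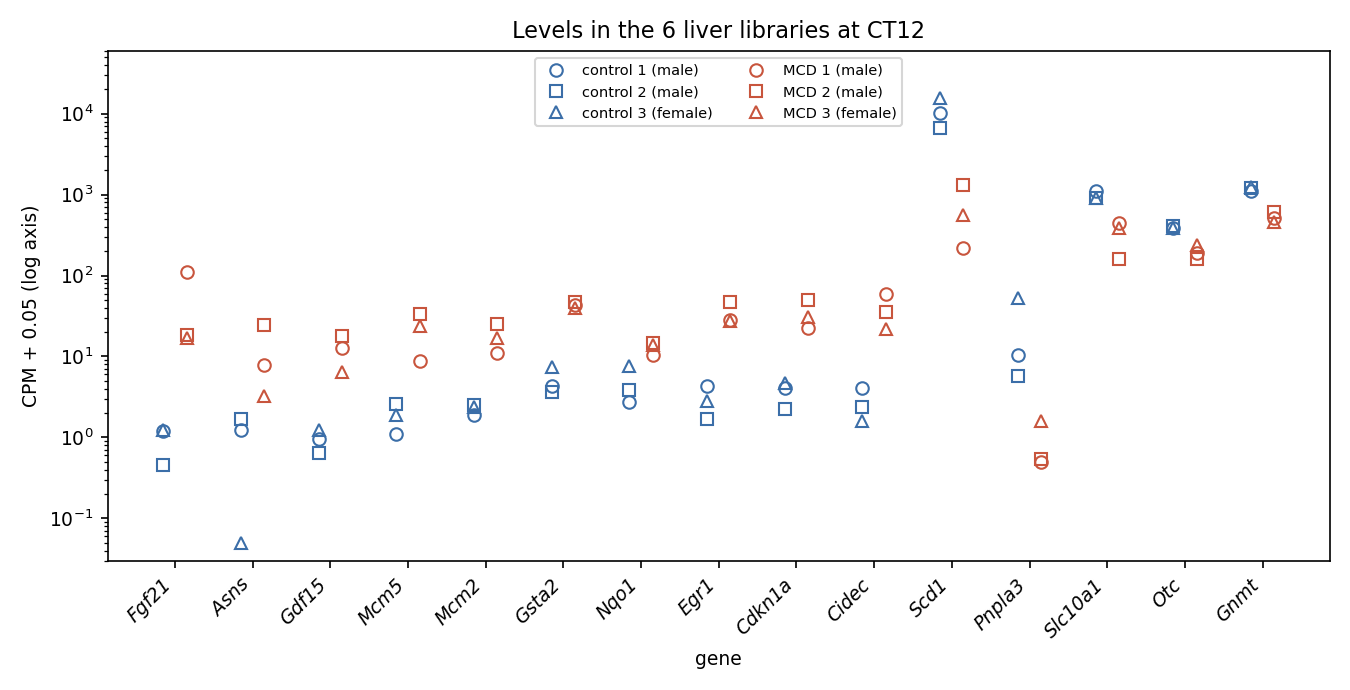
Levels of 15 genes in the 6 liver libraries at CT12, as CPM plus 0.05 on a log axis, with blue symbols for control and red for MCD and 1 symbol shape per replicate. Every gene shown had control and MCD values that did not overlap, with higher MCD levels from Fgf21 to Cidec and lower ones from Scd1 to Gnmt.

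Pathways were described with lists of known genes, each by its count called, to be read against the 15.2% called over all genes, and by its median change, against 0.03 log2. Of 24 amino acid stress genes, the targets and factors of the ATF4 response, 15 rose and none fell, and the median was 1.59 log2. Without MCD 2, 10 were called and the median was 1.15. Asns, which makes asparagine, was at 1.17, 1.62 and 0 CPM in controls and 7.72, 24.4 and 3.18 CPM on MCD. The MCD levels spread widely, with MCD 2 at the top, yet all lay above the controls, and Asns rose by 3.78 ± 0.80 log2 (edgeR adjusted p = 0.00315; 3.05 without MCD 2, 4.32 without control 2, and adjusted p 0.056 with the CT12 libraries alone). Slc7a11, the cystine transporter, was at 0, 0.0642 and 0.0158 CPM and 2.07, 8.16 and 0.406 CPM, a change of 6.69 ± 1.50 log2 (edgeR adjusted p = 0.00434, 0.0834 with limma). Its 5 control counts leave the size imprecise: it was 5.42 without MCD 2, 5.97 without control 1 and 7.92 without control 2. Gdf15, a stress hormone, went from 0.908, 0.594 and 1.17 CPM to 12.8, 17.6 and 6.45 CPM (3.86 ± 0.65 log2, 0.000627), and Atf3, a transcription factor of the response, from 1.24, 0.610 and 1.65 CPM to 15.7, 23.0 and 11.4 CPM (3.88 ± 0.77 log2, 0.00186). Neither gene had overlapping groups.

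Enzymes of the same response rose as well. Psat1 of serine synthesis rose by 2.89 ± 0.72 log2 (edgeR adjusted p = 0.00856), Pycr1 of proline synthesis by 3.27 ± 0.79 (0.00705; 4.74 without control 2) and Mthfd2, the mitochondrial folate enzyme, by 2.63 ± 0.52 (0.00164). Trib3, a pseudokinase induced by ATF4, rose by 2.04 ± 0.52 log2 (edgeR adjusted p = 0.0104), with the call lost without MCD 2 (0.0859, at 1.58 log2). Ddit3, which encodes the stress factor CHOP, and Atf5 rose by 1.41 and 1.39 log2 (0.00745 and 0.000808), both with an exon of another gene on the opposite strand. Atf4 itself, whose protein is known to be controlled at translation, was at 73.6, 73.0 and 67.5 CPM in controls and 139, 68.2 and 74.7 CPM on MCD, with overlapping groups and no call (0.38 log2, edgeR adjusted p = 0.198, 0.00655 with library totals alone). Chac1, a glutathione-degrading target of ATF4, was at 8.14, 3.53 and 3.12 CPM and 11.3, 4.71 and 3.95 CPM, with overlap, and was not called (0.42 log2, 0.743).

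The composite site for ATF4 and C/EBP proteins, here TGATGNAAN on either strand, was looked for in the RefSeq promoter windows (300 bases around each start, build GRCm38.p6) because these genes moved together. It was found in 7 of 27 windows of the list (25.9%), those of 7 of 23 matched genes, and in 3.95% of 32851 windows of all genes. A match describes letters and not a bound site. The stretches below show it in capitals for the cystine transporter and 3 enzymes or factors that rose and for Chac1, which was not called, each read 5′ to 3′ on the gene's strand. Slc7a11 holds it in both orientations.
Asns: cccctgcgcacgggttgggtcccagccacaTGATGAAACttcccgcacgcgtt
Slc7a11: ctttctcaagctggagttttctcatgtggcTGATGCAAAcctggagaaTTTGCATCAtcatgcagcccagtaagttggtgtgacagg
Atf3: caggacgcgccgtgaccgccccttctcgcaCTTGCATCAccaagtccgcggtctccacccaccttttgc
Pycr1: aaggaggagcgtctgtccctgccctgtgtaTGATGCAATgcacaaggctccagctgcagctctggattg
Chac1: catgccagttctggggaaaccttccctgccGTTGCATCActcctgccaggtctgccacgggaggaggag
They lie at chr6:7693210-7693262 (minus strand), chr3:50443623-50443709 (minus), chr1:191183406-191183474 (minus), chr11:120643813-120643881 (minus) and chr2:119351018-119351086 (plus), in the order printed, all before the start.

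Genes of oxidant defence, many of them NRF2 targets, rose in 9 of 10 cases, with a median of 1.48 log2 and 4 called without MCD 2. Gsta2, a glutathione transferase with close paralogs, was at 4.29, 3.55 and 7.37 CPM in controls and 43.0, 46.4 and 40.1 CPM on MCD. The MCD values lay close together and far above the controls (3.11 ± 0.56 log2, edgeR adjusted p = 0.000875). Srxn1, which repairs peroxiredoxins, went from 22.2, 25.5 and 21.8 CPM to 256, 119 and 88.7 CPM, with MCD 1 highest and no overlap (2.73 ± 0.56 log2, 0.00239). Gstm1 and Gclc, the catalytic subunit of glutathione synthesis, rose by 1.65 and 1.20 log2 (0.000813 and 0.00419). Nqo1, a quinone reductase, rose by 1.62 ± 0.43 (0.0131), with the call lost without control 1 (0.078, at 1.44 log2) or MCD 2 (0.0839, at 1.32 log2). The exception was Gclm, the partner subunit of Gclc, at 165, 173 and 182 CPM and 175, 168 and 213 CPM (0.10 log2, edgeR adjusted p = 0.699, 0.0223 with library totals alone).

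Immediate early genes, which respond fast to growth and stress signals, rose in 8 of 10 cases (median 1.76 log2, 4 called without MCD 2). Egr1 was at 4.31, 1.62 and 2.78 CPM in controls and 28.1, 47.7 and 27.6 CPM on MCD, without overlap (3.55 ± 0.69 log2, edgeR adjusted p = 0.00164). Klf6, Fos and Jun rose by 2.19, 2.31 and 2.11 log2 (edgeR adjusted p = 0.000627, 0.00224 and 0.00651). Myc stood against them with 37.2, 28.7 and 19.9 CPM in controls and 16.7, 17.2 and 15.1 CPM on MCD, lower values that did not pass the test (-0.77 log2, 0.457).

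**Figure D2:**
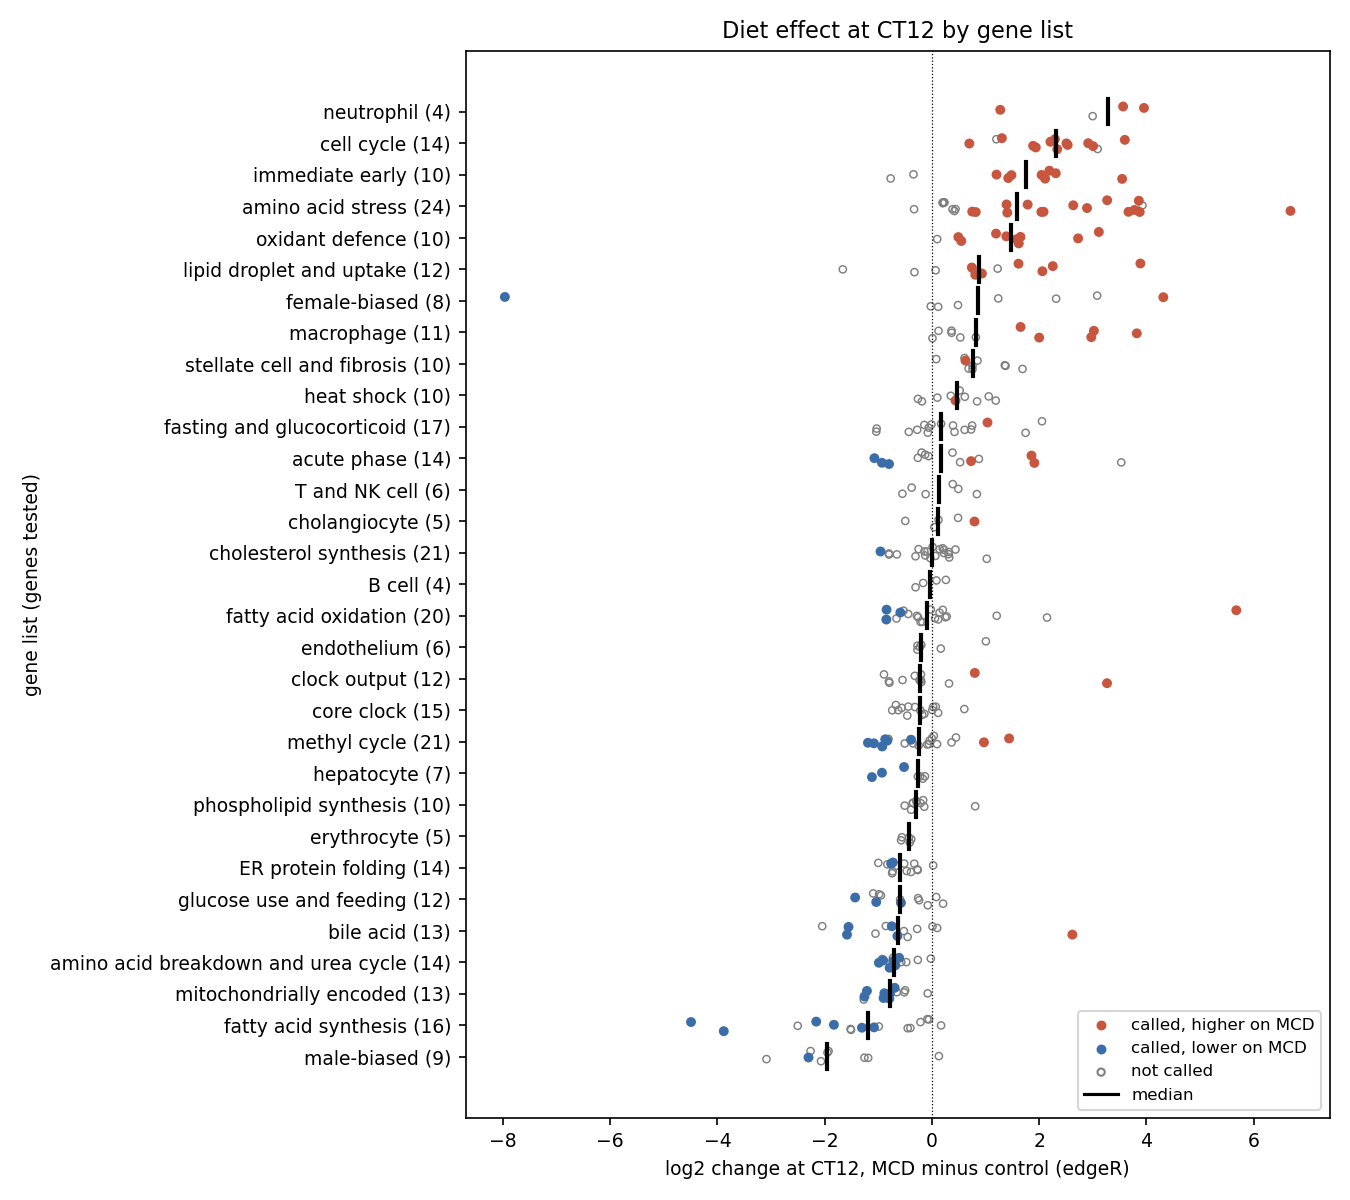
Change at CT12 of every tested gene in 31 lists, as MCD minus control in log2 by edgeR, with filled points for called genes and a bar at each list's median; the number of genes tested is in brackets. The lists of neutrophil, cell cycle, immediate early, amino acid stress and oxidant defence genes had the highest medians, from 3.28 to 1.48, and those of male-biased and fatty acid synthesis genes the lowest, -1.95 and -1.19.

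Lipid genes divided by role. Of 16 fatty acid synthesis genes, 6 fell and none rose (median -1.19 log2), and 3 fell without MCD 2. Scd1, the desaturase that makes monounsaturated fatty acids, was at 10210, 6686 and 15640 CPM on control, falling to 217, 1324 and 557 CPM on MCD. The highest MCD level was under the lowest control level, and Scd1 fell by 3.88 ± 0.65 log2 (edgeR adjusted p = 0.000627; -4.94 without MCD 2, and adjusted p 0.0554 with the CT12 libraries alone). Srebf1, which encodes the lipogenic factor SREBP-1, went from 577, 966 and 1067 CPM to 282, 192 and 251 CPM, without overlap (-1.83 ± 0.42 log2, 0.00529). Mlxipl, which encodes the glucose-sensing factor ChREBP and stood in the list of glucose use, fell by 1.04 ± 0.24 log2 (0.00549). Srebf1 and Mlxipl share bases with exons on the opposite strand. Fasn, fatty acid synthase, was at 1159, 2899 and 3533 CPM and 974, 342 and 1388 CPM, with overlap and no call (-1.52 log2, edgeR adjusted p = 0.193). Of 21 cholesterol synthesis genes only Sc5d was called (-0.97 log2, 0.0176), and the call was lost without control 3 (0.0735) or MCD 2 (0.116).

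Among 12 genes of lipid droplets and fatty acid uptake, 7 rose and none fell (median 0.87 log2), and 2 were called without MCD 2. Cidec, which enlarges lipid droplets, was at 3.98, 2.31 and 1.55 CPM in controls and 58.6, 35.0 and 22.0 CPM on MCD. MCD 1 was highest, all MCD values lay above all controls, and Cidec rose by 3.89 ± 0.97 log2 (edgeR adjusted p = 0.00922). Plin4, a droplet coat protein, rose by 2.06 ± 0.57 log2 (0.0171), with the call lost without control 2 (0.0669, at 1.95 log2) or control 3 (0.0681, at 1.90 log2), and it has an exon of another gene on the opposite strand. Cd36, the fatty acid receptor, was at 42.0, 25.6 and 103 CPM and 82.1, 174 and 199 CPM, groups that overlapped through the control female, with a call (1.61 log2, 0.0149) that was lost without control 2 (0.0756) or MCD 2 (0.133), with no sex term (0.204) and with males only (0.059). Of 20 fatty acid oxidation genes, 1 rose, Fgf21, and 3 fell (median -0.10 log2). With library totals alone 7 rose and 1 fell (median 0.28), and without MCD 2, 1 rose and none fell. Ppara, a nuclear receptor that drives fatty acid oxidation, and Acaa2, a thiolase of beta-oxidation, fell by 0.85 and 0.59 log2 (edgeR adjusted p = 0.0143 and 0.0223). Both calls were lost without control 1 (0.103 and 0.0865, at -0.66 and -0.55 log2) or MCD 2 (0.0643 and 0.146, at -0.81 and -0.46 log2), and that of Acaa2 also without control 2 (0.069). With library totals alone neither was called (0.0537 and 0.128, at -0.48 and -0.24 log2), nor was Ppara with males only (0.0826). Cyp4a14, a target of PPAR alpha, was at 254, 30.7 and 672 CPM and 964, 499 and 2302 CPM, with overlap, and was not called (2.15 log2, 0.105, 0.0484 by DESeq2).

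Methyl metabolism moved in both directions, with 2 of 21 genes higher and 6 lower (median -0.25 log2). With library totals alone 6 were higher and 4 lower (median 0.13), and without MCD 2, 1 was higher and 4 lower. Mat2a, a methionine adenosyltransferase, was at 90.2, 102 and 84.3 CPM in controls and 251, 209.9 and 289.8 CPM on MCD, more than doubled in each comparison of an MCD with a control library (1.44 ± 0.17 log2, edgeR adjusted p = 2.85e-05). Aldh7a1, which oxidizes betaine aldehyde from choline, fell from 412, 420.2 and 294 CPM to 199.5, 230.2 and 181 CPM without overlap (-0.87 ± 0.11 log2, 4.26e-05). Sardh, the sarcosine dehydrogenase, fell by 0.93 ± 0.22 log2 (0.007). Gnmt, which methylates glycine, was at 1115, 1208 and 1260 CPM and 513, 606 and 454 CPM, without overlap (-1.19 ± 0.33 log2, 0.0163, 0.0515 without control 3), and Gamt of creatine synthesis fell by 1.08 log2 (0.0108, 0.0527 without MCD 2). Mat2a, Aldh7a1 and Sardh have opposite-strand exon overlaps. None of 10 phospholipid synthesis genes was called (median -0.29 log2, 0.08 with library totals alone).

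Of 14 genes of amino acid breakdown and the urea cycle, 6 fell and none rose (median -0.70 log2). Without MCD 2, 5 fell, and with library totals alone 2 did (median -0.32). Otc, an enzyme of the urea cycle, was at 388, 408 and 383 CPM in controls and 189.5, 161 and 242 CPM on MCD, without overlap (-0.99 ± 0.16 log2, edgeR adjusted p = 0.000466). Of 13 bile acid genes, 4 fell and 1 rose (median -0.64). Without MCD 2, 1 fell and none rose, and with library totals alone 2 fell and 1 rose (median -0.30). Slc27a5, the bile acid CoA ligase, was at 1041, 855 and 974 CPM and 315, 239.9 and 412 CPM (-1.58 ± 0.28 log2, 0.000668). Slc10a1, the bile acid uptake transporter, went from 1103, 903 and 922 CPM to 446, 159 and 391 CPM (-1.56 ± 0.39 log2, 0.00853, 0.0623 without MCD 2). Both were lowest in MCD 2 and had no overlap. Cyp7a1, the rate-limiting enzyme of bile acid synthesis, was at 209, 230.0 and 394 CPM and 144, 201 and 349 CPM, with overlap and no call (-0.28 log2, 0.865). Of 13 mitochondrially encoded genes, 7 fell (median -0.78; 5 without MCD 2, median -0.56; 7 with library totals alone, median -0.44), mt-Nd5, whose exon overlaps mt-Nd6 on the opposite strand, and mt-Nd2 by 1.21 and 1.26 log2 (0.00135 and 0.00273). The acute phase list went both ways, with Apcs, serum amyloid P, higher by 1.86 log2 and the fibrinogen chains Fga and Fgb lower by 1.07 and 0.93 log2 (0.00145, 0.000151 and 0.000627).

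Some markers of cell types were called, and fewer were without MCD 2. In bulk tissue, fewer cells of a type and less RNA per cell cannot be told apart. Of 7 hepatocyte markers, Fgb, Serpina1c and Ttr fell, Ttr by 0.52 log2 (0.0326), and 4, among them Alb (-0.13 log2, edgeR adjusted p = 0.737), were not called. The call for Ttr was lost without any 1 CT12 library but MCD 3 (edgeR adjusted p 0.0531 to 0.118) and with library totals alone (0.361, -0.16 log2). The list summed to 92250 to 117700 CPM on control and to 100300, 64810 and 105800 CPM on MCD, MCD 2 being lowest. Of 11 macrophage markers, 5 rose, and they summed to 308.2 to 484.7 CPM in controls and 428.8, 904.1 and 470.8 CPM on MCD. Trem2, a receptor of lipid-associated macrophages, was at 0.380, 0.465 and 0.949 CPM and 2.90, 19.1 and 3.50 CPM, without overlap (3.82 ± 0.82 log2, 0.00315; 2.39 without MCD 2, and adjusted p 0.0942 with the CT12 libraries alone). Cd9 went from 5.56, 5.15 and 4.98 CPM to 16.1, 30.9 and 15.5 CPM (2.00 ± 0.43 log2, 0.00326). Lgals3 and Cd68 rose by 3.02 and 1.65 log2 (0.00535 and 0.00461), with the calls lost without MCD 2 (0.0598 and 0.0593, at 2.09 and 1.17 log2). Without MCD 2, 2 macrophage markers were called, and the list's median went from 0.82 to 0.13 log2. Clec4f and Vsig4, markers of resident Kupffer cells, were at 0.12 and 0.37 log2 and were not called (0.7 and 0.135).

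Of 4 neutrophil markers, 3 rose, from a sum of 1.62 to 2.70 CPM on control to 5.63, 12.4 and 3.82 CPM on MCD, and none was called without MCD 2 or with limma (adjusted p 0.102 to 0.138). S100a8, the most changed of them, was at 0.0660, 0.0802 and 0 CPM and 0.503, 1.53 and 0.312 CPM (3.95 ± 1.08 log2, edgeR adjusted p = 0.0147; 0.0571, 0.0584 and 0.0943 without control 1, control 3 and MCD 2, and 3.13 log2 without MCD 2). Of 10 stellate cell and fibrosis markers only Dcn, a proteoglycan, was called (0.62 log2, edgeR adjusted p = 0.0358). The call was lost without control 1, control 2 or MCD 2 (0.121, 0.115 and 0.382, at 0.31 log2 without MCD 2), so that no marker was called without MCD 2, when the list's median went from 0.76 to 0.18 log2. With library totals alone 7 were called. The list summed to 300.1 to 377.2 CPM in controls and 337.8, 819.9 and 426.3 CPM on MCD. Col3a1, a fibrillar collagen, was at 19.1, 30.0 and 28.4 CPM and 35.2, 204 and 24.9 CPM, with overlap (1.69 log2, 0.0704; called without MCD 1 and without MCD 3, 0.035 and 0.025, and at 0.21 log2 without MCD 2). Markers of T and NK cells, B cells, endothelium and erythrocytes had no call among 6, 4, 6 and 5 genes. No CT12 library had more of the macrophage, neutrophil and stellate cell lists than MCD 2, and the part of cell makeup in the other results was not tested.

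The second comparison asked what set CT12 apart. Of the 3081 genes called there, 2177 (70.7%) were called in the same direction at 1 or more of the other times and 101 (3.28%) at all 5 of them. With CT04, where 18.2% of all genes were called, it shared 1629 calls of the same direction, 52.9% of the CT12 calls and 44.3% of those of CT04. It shared 1054 with CT00 (34.2% and 41.3%), 1138 with CT16 (36.9% and 44.9%) and 964 with CT20 (31.3% and 42.1%), where 12.6%, 12.5% and 11.3% of all genes were called. With CT08, where 263 genes (1.3%) were called, it shared 178 (5.78% and 67.7%). Without control CT08 a, CT08 had 1232 calls (6.08%) and shared 938 with the 3837 of CT12 (24.4% and 76.1%), and 486 genes (12.7%) were called at all 5 other times. The remaining 904 genes (29.3%) were called at CT12 and at no other time in that direction, which does not show that their response differed, and 965 of 3837 (25.1%) were without control CT08 a. Of all 3081, 2171 (70.5%) had the sign of CT12 at each of the other 5 times, called or not (77.6% without control CT08 a).

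**Figure D3:**
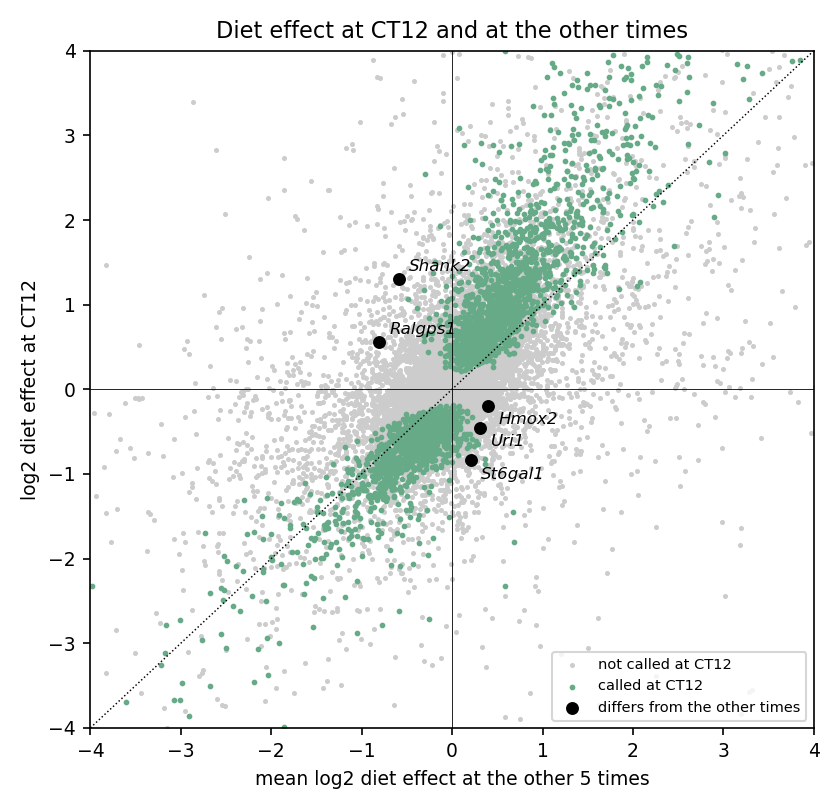
Diet effect at CT12 against the mean diet effect of the other 5 times, both in log2 by edgeR, 1 point per gene, with called genes of CT12 in green and the dotted line marking equal effects; 482 genes beyond 4 log2 on either axis are not drawn. The 5 labelled genes are those whose 2 effects differed by the test of the difference, Shank2 and Ralgps1 with a higher effect at CT12 and Hmox2, Uri1 and St6gal1 with a lower one.

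A direct test of the difference, the diet effect at CT12 minus the mean diet effect of the other 5 times, called 5 of 20249 genes (0.0247%), while 2287 (11.3%) reached an unadjusted p of 0.05. With DESeq2 309 genes differed and with limma 14, all 5 among them in each case. No gene was called without control CT12 1 or without MCD CT12 2, and 63 were called without control CT08 3, so the count rests on single libraries. Without control CT12 1 and without MCD CT12 2, respectively, the 5 differences kept their sign. They were 1.765 and 1.652 log2 for Shank2, 1.365 and 1.317 for Ralgps1 and -0.942 and -1.106 for St6gal1. For Uri1 they were -0.738 and -0.63, and for Hmox2 -0.587 and -0.544. In each of the 5 genes the diet effects had opposite signs at CT12 and on average at the other times. Single times were closer to CT12: the effect on St6gal1 was -0.17 log2 at CT04 and -0.11 at CT08, that on Shank2 was 0.17 at CT16, and Hmox2 was not called at CT04 (0.13) or CT08 (0.17). Against CT08 alone none of the 5 passed the test (edgeR adjusted p 0.123 to 0.305), nor against CT16 alone (0.194 to 0.363). Against CT16 alone the differences were 1.127 log2 for Shank2, 1.167 for Ralgps1, -1.211 for St6gal1, -0.783 for Uri1 and -0.631 for Hmox2. Against CT08 alone they were 1.773, 0.739, -0.728, -0.502 and -0.36 log2 in that order. All values at CT08 include control CT08 a. Without that library the difference from the mean of the other times had 19 genes, these 5 among them.

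Shank2 encodes a scaffold protein of the postsynaptic density. At CT12 it was at 8.32, 7.57 and 20.3 CPM in controls and 16.9, 31.9 and 36.2 CPM on MCD, the control female lying above MCD 1 so that the groups overlapped, with a change of 1.30 ± 0.28 log2 (edgeR adjusted p = 0.00315). On control the mean level went from 53.1 CPM at CT00 and 51.5 CPM at CT20 down to 12.1 CPM at CT12. On MCD it lay between 17.6 CPM (CT08) and 37.9 CPM (CT20), with 28.3 CPM at CT12. Over the other times the diet effect was -0.59 log2, and the difference was 1.89 ± 0.31 (edgeR adjusted p = 0.0105). Ralgps1, a guanine nucleotide exchange factor for Ral, was at 4.66, 5.09 and 4.52 CPM in controls and 5.78, 7.25 and 8.11 CPM on MCD at CT12, without overlap (0.56 ± 0.19 log2, edgeR adjusted p = 0.0495). That call was lost without any 1 CT12 library but MCD 1 (0.0704 to 0.172). Its control means ran from 4.76 CPM at CT12 to 19.1 CPM at CT20, while its MCD means stayed between 6.85 and 7.43 CPM at all 6 times. The difference was 1.36 ± 0.21 log2 (edgeR adjusted p = 0.0105) from an effect of -0.80 at the other times. For both genes CT12 was thus the time of the lowest control mean.

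St6gal1, the sialyltransferase that caps N-glycans of secreted proteins, was at 92.4, 77.4 and 91.0 CPM in controls and 44.9, 49.6 and 51.9 CPM on MCD at CT12. The groups were well apart (-0.83 ± 0.17 log2, edgeR adjusted p = 0.00228), and the MCD mean of 48.8 CPM was its lowest of the 6 times, against 92.0 CPM at CT16 and 185 CPM at CT00. The difference from the other times was -1.04 ± 0.19 log2 (0.0305). Uri1, a prefoldin-like chaperone component, was at 42.6, 44.6 and 32.1 CPM and 32.5, 24.4 and 29.4 CPM, touching through the control female (-0.45 ± 0.11 log2, 0.00807, 0.0758 without MCD 2). Its control mean was highest at CT12 (39.7 CPM) and its MCD mean lowest (28.7 CPM), with a difference of -0.76 ± 0.12 log2 (0.0105). Hmox2, the constitutive heme oxygenase, was at 38.2, 40.1 and 32.0 CPM and 34.5, 30.7 and 30.9 CPM, was not called at CT12 (-0.19 log2, edgeR adjusted p = 0.176) and was higher on MCD on average at the other times (0.40 log2). The difference of -0.59 ± 0.11 log2 (0.0291) therefore describes an increase that was not seen at CT12. St6gal1 and Hmox2 have exons of other genes on the opposite strand.

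**Figure D4:**
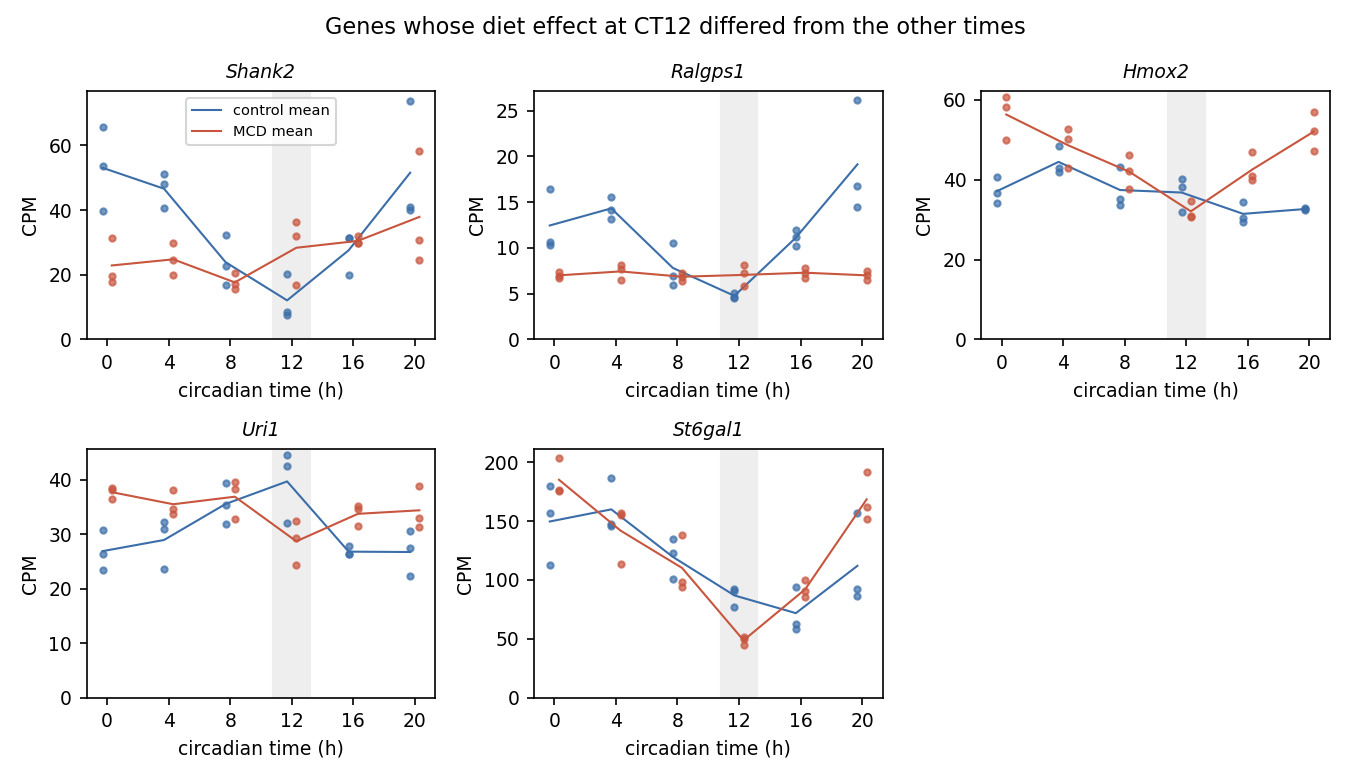
Levels in CPM of the 5 genes called by the test of the difference at the 6 circadian times, with points for single libraries, lines through the means of 3 libraries per diet and CT12 shaded. At CT12 the MCD means of Shank2 and Ralgps1 lie above the control means and those of St6gal1, Uri1 and Hmox2 below; the MCD mean of St6gal1 was below control at CT04 and CT08 too, and that of Shank2 above it at CT16.

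No list held a gene called by the test of the difference. The list of cell cycle genes had the most differences at an unadjusted p under 0.05. The MCM proteins form the helicase that is loaded on DNA before S phase, and PCNA is the clamp of the replicative polymerases. All 14 cell cycle genes had MCD values above the control values in each of the 6 libraries (29.8% of all genes had no overlap in either direction), 12 were called and the median was 2.31 log2. The median was 0.27 log2 at CT08, but 1.70 with 7 called without control CT08 a, and it was 1.19 to 1.77 at the other 4 times, and the number called was 12 at CT12, 8 at CT04 and at most 6 elsewhere. In 11 of the 14 genes the diet effect was highest at CT12, as it was in 19.6% of all genes, and it was so in 11 without control CT08 a too. The difference from the other times had an unadjusted p under 0.05 in 7 of 14, all positive, against 5.34% of all genes with a positive one, but none passed the adjustment. Without MCD 2, 7 of the 14 were called, the median was 1.80, and 5 had such a difference.

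Mcm5 was at 1.04, 2.52 and 1.85 CPM in controls and 8.74, 33.1 and 24.0 CPM on MCD at CT12, lowest in MCD 1 and highest in MCD 2. The change was 3.60 ± 0.61 log2 (edgeR adjusted p = 0.000627; 3.01 without MCD 2), against 1.33 at the other times, a difference of 2.27 ± 0.63 (unadjusted p = 0.00125 by edgeR, adjusted 0.125). Its MCD mean was 21.9 CPM at CT12 and 4.69 to 8.74 CPM at the other times, while the control mean was 1.62 to 5.85 CPM, the upper end at CT08, where control a alone had 12.5 CPM. Mcm2 was at 1.85, 2.44 and 2.29 CPM and 10.9, 24.9 and 16.9 CPM, a change of 3.00 ± 0.51 log2 (0.000627), and Mcm6 at 3.52, 4.11 and 5.83 CPM and 15.4, 51.9 and 32.4 CPM, a change of 2.91 ± 0.54 log2 (0.00109; 2.32 without MCD 2). Both followed the order of the MCD libraries seen for Mcm5. Mcm3, Mcm4 and Mcm7 rose by 1.89, 1.94 and 1.30 log2 and Pcna by 0.70 (edgeR adjusted p = 0.00135, 0.00177, 0.00105 and 0.00276). The 7 genes with the difference were these 6 Mcm genes and Pcna.

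In the other cell cycle genes the difference did not reach an unadjusted p of 0.05. Cdk1, the mitotic kinase, and Top2a, a topoisomerase of dividing cells, rose by 2.53 and 2.51 log2 at CT12 (edgeR adjusted p = 0.0106 and 0.0137), against 1.60 and 1.45 at the other times (unadjusted p of the difference = 0.185 and 0.147 by edgeR). Cdk1 was not called without control 1 (0.0582) or MCD 2 (0.0661), and Top2a without control 1 (0.0514), control 2 (0.0593) or MCD 2 (0.102). Ccnd1, the cyclin of entry into the cycle, was at 24.8, 61.8 and 70.1 CPM and 138, 276 and 291 CPM, a change of 2.21 log2 at CT12 and 2.33 at the other times. Its call at CT12 (0.0126) was lost without control 1 (0.0755), control 3 (0.0556) or MCD 2 (0.0901). Cdkn1a, which encodes the cell cycle inhibitor p21, rose too, from 4.03, 2.21 and 4.71 CPM to 22.3, 50.0 and 30.9 CPM without overlap (3.27 ± 0.92 log2, 0.0187), with the call lost without control 1, 2 or 3 or MCD 2 (0.0664, 0.0778, 0.0517 and 0.0823). The sum of the 14 cell cycle genes was 73.4 to 125.6 CPM in controls and 247.5, 543.2 and 477.4 CPM on MCD. MCD 2 also had the highest macrophage, neutrophil and stellate cell sums. MCD 3, next in the cell cycle sum, had a macrophage sum within the range of the controls and Trem2 and Cd9 levels above all controls. Which cells the replication transcripts came from was not tested.

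**Figure D5:**
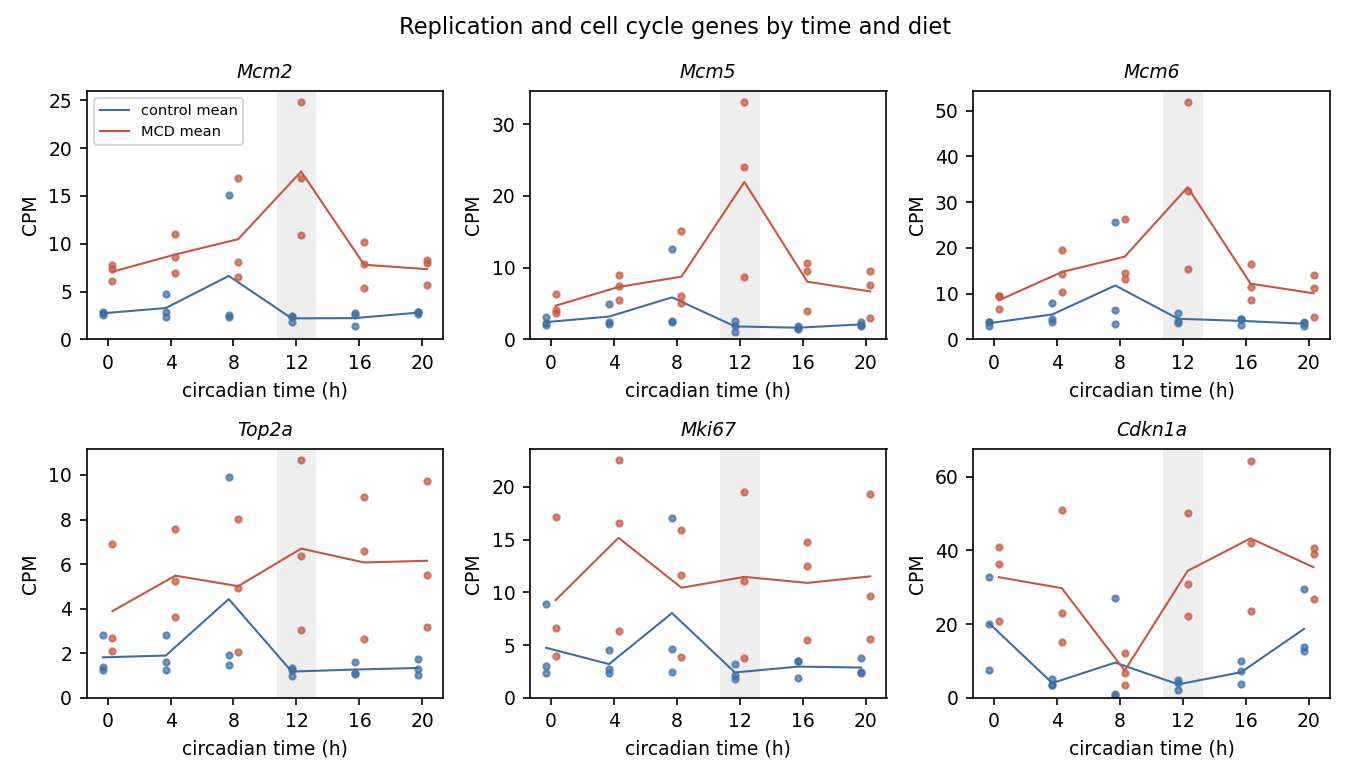
Levels in CPM of 6 genes of replication and the cell cycle at the 6 circadian times, with points for single libraries, lines through the means of 3 libraries per diet and CT12 shaded. The MCD means of Mcm2, Mcm5 and Mcm6 peak at CT12, and single control points far above their group at CT08 belong to control a.

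Promoter windows of Mcm5, Mcm6 and Mcm7 are shown because these genes moved together. E2F-type sites, searched on both strands as TTTCCCGC and TTTGGCGC after the values had been seen, stood in 2 and 3 of 12 windows of the cell cycle list (16.7% and 25.0%) and in 1.07% and 0.514% of all 32851 windows. Capitals mark them.
Mcm5: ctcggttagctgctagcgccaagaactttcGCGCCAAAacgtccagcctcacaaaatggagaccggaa
Mcm6: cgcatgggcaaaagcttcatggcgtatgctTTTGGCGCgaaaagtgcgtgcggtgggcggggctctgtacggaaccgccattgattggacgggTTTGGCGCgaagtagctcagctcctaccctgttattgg
Mcm7: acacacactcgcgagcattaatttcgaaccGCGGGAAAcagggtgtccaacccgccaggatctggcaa
These lie before the starts, at chr8:75109330-75109397 (plus strand), chr1:128359715-128359845 (minus) and chr5:138172011-138172078 (minus) in GRCm38.p6. Mcm7 counts may hold reads of a gene on the opposite strand.

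Other differences from the other times were single genes that did not pass the adjustment. Of 20 fatty acid oxidation genes, 6 had a negative difference at an unadjusted p under 0.05, against 5.96% of all genes. Without MCD 2, 2 did, and with library totals alone 2 did. Among the 6 was Ppara, with -0.85 log2 at CT12 and -0.09 at the other times (unadjusted p = 0.00568 and adjusted p = 0.217 by edgeR). Egr1 had 3.55 log2 at CT12 and 1.49 at the other times (unadjusted p of the difference = 0.00756, adjusted 0.236 by edgeR). Myc had -0.77 log2 at CT12, which was not called, and 1.37 at the other times (unadjusted p of the difference = 0.00587, adjusted 0.217 by edgeR). Hsp90ab1, a cytosolic chaperone, rose by 0.43 log2 at CT12 (edgeR adjusted p = 0.0197) and had -0.13 log2 at the other times (unadjusted p of the difference = 0.000303, adjusted 0.0861 by edgeR). Its call was lost without control 1, control 2, MCD 2 or MCD 3 (0.0657, 0.0703, 0.0732 and 0.0527).

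The core clock had no called gene at CT12 among 15 (median -0.22 log2, 0.13 with library totals alone). With males only 1 was higher and 1 lower, and without control CT08 a, 1 was lower. Per2, which peaks near dusk in liver, was at 103, 101 and 108 CPM in controls and 125, 79.4 and 134 CPM on MCD, with MCD 2 lowest and overlapping groups (0.12 log2, edgeR adjusted p = 0.93). Ciart, a repressor of CLOCK and BMAL1, was at 31.4, 27.3 and 10.5 CPM and 20.6, 13.0 and 9.96 CPM at CT12, its peak time on control (-0.67 log2, 0.372). On MCD its highest mean was 28.0 CPM at CT08, against 9.19 CPM on control, and the diet effect over the other times was 1.09 log2, with 3.01 at CT04 and 1.63 at CT08 and 0.13 to 0.44 at CT00, CT16 and CT20, of which CT04 alone was called (unadjusted p of the difference = 0.00315 by edgeR). Arntl, which encodes BMAL1, was at 2.23, 1.72 and 5.90 CPM and 2.88, 3.90 and 8.22 CPM (0.60 log2, 0.354, and called without control 3 at 0.0428 and with males only at 0.0292). Of 12 clock output genes, 2 were called, Nfil3 and Cdkn1a, both higher, while 9 had a negative change (median -0.22 log2, 0.17 with library totals alone). Tef and Hlf were lower without overlap and were not called (-0.55 and -0.80 log2, edgeR adjusted p = 0.0872 and 0.108). Nfil3, a repressor of clock output, went from 11.2, 8.47 and 16.5 CPM to 18.1, 19.3 and 25.8 CPM without overlap (0.80 ± 0.26 log2, 0.0356). Nfil3 was not called without control 1, control 2, MCD 2 or MCD 3 (0.136, 0.179, 0.0713 and 0.174). It was at -0.04 log2 over the other times, a mean of values from -0.74 at CT04 to 0.71 at CT16, the latter close to CT12 (unadjusted p of the difference = 0.00594 by edgeR).

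Sex-biased genes were read with care, since each group held 1 female. Male-biased genes had a median of -1.95 log2 with 1 of 9 called, and without MCD 2 a median of -1.14 with none called. With males only 3 of 9 were called, all lower, and the median was -2.45. Of 8 female-biased genes, 1 rose and 1 fell (median 0.86), and without MCD 2 none rose and 1 fell (median 0.11). With males only 1 rose and none fell (median 1.46). Sult3a1, a sulfotransferase with close paralogs, was at 0.198, 0 and 51.5 CPM in controls and 0, 0 and 0.218 CPM on MCD, high in the control female alone (-7.96 log2, edgeR adjusted p = 0.00105). The call was lost without MCD 3 (0.264, -5.38 log2), with males only (0.384), with no sex term (0.216) and with DESeq2 (0.115). The female-biased list summed to 104.5, 19.1 and 5563 CPM in controls 1 to 3 and to 307.4, 1795 and 3398 CPM in MCD 1 to 3, of which Cyp2a4 alone made up 1639 CPM in MCD 2, labelled male and with Xist at 0.331 CPM. The other 7 genes lay between 0 and 65.1 CPM in that library. Cyp2a4, a female-biased cytochrome P450 with near-identical paralogs, was at 38.2, 17.1 and 1451 CPM and 203, 1639 and 1935 CPM (4.32 ± 1.42 log2, edgeR adjusted p = 0.0413), with no call without control 1, 2 or 3 or MCD 2 (0.122, 0.133, 0.0901 and 0.389; 2.01 log2 without MCD 2 and 4.96 without MCD 3). Nor was it called with no sex term (0.794, at 1.33 log2), with limma (0.0649) or with the replicate block within time (0.296, at 2.88 log2). The mitochondrial gene mt-Nd6, which separates 21 low from 15 high liver libraries, was at 32.8 to 129.8 CPM in the CT12 males and 379.5 and 942.7 CPM in the females, so at CT12 this kind of library and sex cannot be told apart, and both were balanced between the diets.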

How the data were processed

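Gene counts of 36 liver libraries were used as deposited by the authors, whole numbers per gene in 1 table per the file headers. Per the submitters' processing notes, Trimmomatic, HISAT2, StringTie, DESeq2 and genome build GRCm39 were used; for their roles, the annotation release and the strand setting, no source used here gives details. Genes with opposite-strand exons (27 of 134 named genes, looked up in an annotation that held 20129 of the 20249 genes tested) are uncertain. Groups came from the sample labels. Nothing states that libraries came from separate cohorts, and p-values measure the spread between these libraries.

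Genes were filtered with edgeR 4.0.16 at a minimum count of 10 (R 4.3.3), and 20249 of 22823 were kept. TMM factors and a quasi-likelihood fit with 12 groups of diet and time and a sex term over all 36 libraries shared 1 estimate of the spread (23 residual degrees of freedom). The diet effect at CT12 and its difference from the mean of the other 5 times were contrasts of this fit, with Benjamini-Hochberg adjustment over all genes. The 10 most changed called genes per direction, with a mean of at least 1 CPM in the higher group and no overlap between groups, the genes called by the difference, and list members were named. The members and lists were chosen with earlier results of these data known. Alternatives were DESeq2 1.42.0, limma 3.58.1, other scalings, filters, covariates and libraries left out. Promoters came from RefSeq GRCm38.p6. The fits were tested on simulated data.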

Additional observations from a re-analysis of the deposited data

Results flagged for a closer look

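The diet effect at CT12 differed from the mean of the other 5 times, by an interaction contrast in edgeR, in 5 genes. The difference was 1.89 log2 for Shank2 and 1.36 log2 for Ralgps1, with a higher effect at CT12. It was -1.04 log2 for St6gal1, -0.76 log2 for Uri1 and -0.59 log2 for Hmox2, with a lower one. None of the 5 was called without control CT12 1 or without MCD CT12 2, though each difference kept its sign. In the order named they were 1.765, 1.365, -0.942, -0.738 and -0.587 log2 without control CT12 1. Without MCD CT12 2 they were 1.652, 1.317, -1.106, -0.63 and -0.544 log2.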

How the results depend on the processing

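The diet effect at CT12 (3081 genes) came to 6475 genes with library totals alone, 1999 with males only, 1961 without MCD CT12 2 and control CT08 a, and 754 with the CT12 libraries only. Leaving out 1 library gave 1272 (without MCD CT12 2) to 3837 (without control CT08 a). DESeq2 called 4027 and limma 2870. The difference from the other times (5 genes) came to 309 with DESeq2, 14 with limma, 3 with library totals alone, 11 with a mean of at least 1 CPM, 1 with no sex term, 11 when library kind (mt-Nd6 level) was modelled, 0 with males only (2458 at an unadjusted p under 0.05), 19 without control CT08 a and 3 without that library and MCD CT12 2. Leaving CT00, CT04, CT08, CT16 or CT20 out of the other times gave 1, 8, 50, 45 and 2, and setting CT12 against each alone gave 56, 63, 1, 0 (1897 unadjusted, against CT16) and 24. Leaving out 1 library gave 0 (without control CT12 1, with 1525 at an unadjusted p under 0.05, or MCD CT12 2, with 1667) to 63 (without control CT08 3), and 48 and 38 without MCD CT04 1 and MCD CT12 1. The causes were not tested. Among single genes, 2520 recomputed values kept their side of the threshold, 421 lost the call and 25 gained one. No value called in the main fit or in the alternative changed sign. Changes of sign in genes called in neither were not counted.

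Same-numbered CT12 libraries correlated at 0.45, 0.026 and 0.521, so the numbers were not taken as pairs. With the replicate block within time the difference had 2 genes, Shank2 and Ralgps1, and with the number in place of sex 6. With that block St6gal1, Uri1 and Hmox2 lost the call (edgeR adjusted p = 0.215, 0.2225 and 0.2225, at -1.001, -0.74 and -0.592 log2). With no sex term only Ralgps1 was called. Shank2, St6gal1, Uri1 and Hmox2 then had 1.805, -1.025, -0.773 and -0.6 log2 (edgeR adjusted p = 0.0806 for each). Only control 1 and control 3 correlated best with their own number.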
